A study of Mus musculus with 10 samples.

Results

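Collagen genes were compared between mouse neuroblastomas that carried activated ALK together with MYCN and neuroblastomas that carried MYCN alone. The members were all gene probes of the array whose gene name has the form of a collagen chain (Col, a number, a, a number) or is Emid2, the older name of Col26a1. This rule found 43 names, and 1 of them, Col4a3bp, was left out because it names a ceramide transfer protein that is no collagen. The 42 collagen genes were read by 64 probes of the 55681 on the array, and 32 of them were measured well enough to be tested, among 22263 genes tested of 36161 on the array.

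Total RNA of 10 untreated tumours from 10 mice was measured, 5 tumours in each group. Tumours called ALK/MYCN came from mice transgenic for ALK F1174L (ALK+/-) and MYCN (MYCN+/-) on a mixed C57BL/6 x 129X1/SvJ background, and tumours called MYCN came from MYCN+/- transgenic mice on a 129X1/SvJ background. Genotype and strain background therefore cannot be told apart in any difference below, and the labels name neither the age of the mice nor the promoters that drive the transgenes. Each tumour, labelled with Cy3, shared an array with the same Cy5-labelled reference RNA, a commercial pool of 11 mouse cell lines, and the unit throughout is the log2 ratio of tumour over reference; a difference is ALK/MYCN minus MYCN on that log2 scale, ± its standard error from limma, a linear model fitted across all genes.

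Collagens are the most abundant proteins of the extracellular matrix, built of chains that wind into triple helices because glycine recurs at a fixed spacing along each chain. Fibrillar collagens such as types I, III and V form the fibres of connective tissue and are made mainly by fibroblasts, type IV collagen forms the sheet of basement membranes around vessels and epithelia, type VI forms beaded microfilaments, and the FACIT collagens decorate fibril surfaces. In neuroblastoma, a tumour of the sympathetic nervous system, stroma rich in Schwann cells and fibroblasts varies widely between tumours.

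The repeat that defines the family can be read directly in a few of the probes. In a collagen helix glycine, encoded by GGN, takes the same place in each triplet of residues, so that GG recurs every 9 bases; a run of at least 4 such codons was found in 4 of the 64 collagen probes and in 51 of all 55681 probes (0.0916%). The 4 are shown because they lie in the coding part that makes these genes collagens, on the plus strand at mm9, with the codons of each run in capitals; GGN codons outside the spacing of that run are left in lower case.
Col14a1, chr15:55347733-55347792: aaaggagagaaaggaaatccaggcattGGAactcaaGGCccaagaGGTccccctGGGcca
Col15a1, chr4:47283786-47283845: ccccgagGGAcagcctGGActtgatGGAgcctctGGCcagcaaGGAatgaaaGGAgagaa
Col16a1, chr4:129756457-129756516: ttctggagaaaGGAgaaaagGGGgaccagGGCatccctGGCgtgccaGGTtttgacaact
Col25a1, chr3:130270497-130270556: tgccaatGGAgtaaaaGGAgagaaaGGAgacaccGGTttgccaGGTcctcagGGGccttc
The Col14a1 and Col15a1 probes shown were well above background on all 10 arrays, whereas the Col16a1 probe was so on 4 and the Col25a1 probe on 1. None of the 4 was the probe chosen for its gene, which was the kept probe of highest mean intensity, and the values of the Col14a1 and Col15a1 probes shown serve below as second readings.

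Between 53.8% and 58.7% of the gene spots on an array exceeded background well in Cy3, the tumours' dye. The probe for mouse Mycn was higher by 2.85 ± 0.35 in ALK/MYCN tumours (adjusted p = 0.000762, limma), and that for mouse Alk differed by 0.065 ± 0.20 (adjusted p = 0.837). The labels do not say whether either probe reads the transgene's transcript. The neuroblastoma label was checked with 8 markers of sympathetic neuroblasts, all 8 of which were measured, with list means per tumour from -0.046 to 0.048 in ALK/MYCN tumours and from -0.18 to 0.094 in MYCN tumours after centring each gene over the 10 tumours. Other tissue was also present. ALK/MYCN 3 stood apart for adrenal cortex markers (mean 4.12, at most -0.25 elsewhere), and MYCN 2 and MYCN 1 for skeletal muscle markers (4.58 and 2.31, at most -0.21 elsewhere); adipocyte markers were highest in MYCN 4 (3.67) and ALK/MYCN 3 (2.13). The muscle list means did not overlap between groups, from -1.21 to -0.93 in ALK/MYCN tumours and from -0.68 to 4.58 in MYCN tumours. Results that change without ALK/MYCN 3 and MYCN 2 are said to do so where they stand. The fit without those tumours still held MYCN 1.

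Across the family, 8 collagen genes were higher in ALK/MYCN tumours and 3 were lower by limma's moderated test at a Benjamini-Hochberg adjusted p under 0.05, among 32 tested; over all genes tested 14.2% were called higher and 12.2% lower. The 8 were Col24a1, Col9a1, Emid2, Col28a1, Col9a2, Col7a1, Col20a1 and Col2a1, of which Col24a1 and Col2a1 are fibrillar. The 3 lower were Col6a2, Col25a1 and Col11a2. The classical fibroblast collagens Col1a1, Col1a2 and Col3a1 and the basement membrane pair Col4a1 and Col4a2 had negative differences that did not pass. The median difference was -0.44 over the 16 fibrillar and basement membrane collagens tested and 0.41 over the 16 other collagens, beside -0.13 over all 32 and -0.0036 over all genes tested. Among the fibrillar and basement membrane genes 2 were called higher and 1 lower, and among the others 6 were called higher and 2 lower. These counts run over the members that passed a filter on dim probes, at least 5 of 10 tumours well above background. Col2a1 and Col28a1 met it mainly through the ALK/MYCN tumours (5 of 5, against 0 of 5 and 1 of 5 MYCN tumours). Col11a2, called lower, met it mainly through the MYCN tumours (5 of 5, against 2 of 5 ALK/MYCN tumours). The directions of these genes were therefore partly fixed by the filter, and the counts are a description only. The split of collagen calls moved with the centring of the arrays, from 8 higher and 3 lower to 9 and 1 with median centring and 10 and 0 with spike-in centring (4 lower at an unadjusted p under 0.05, limma). Over all genes tested median centring called 20.0% higher and 6.06% lower, and spike-in centring 31.6% and 4.17%.

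**Figure D1:**
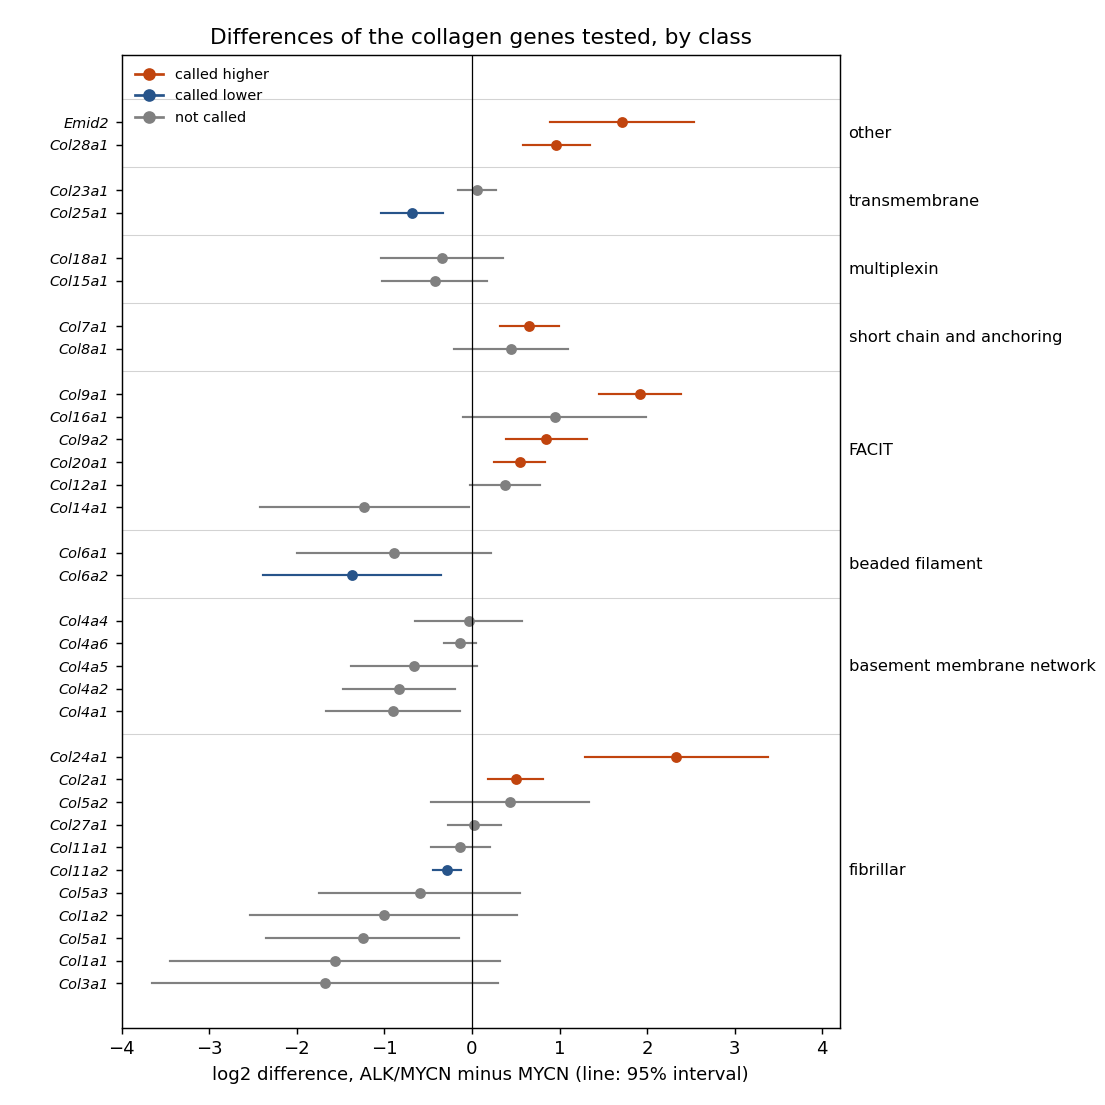
Difference between ALK/MYCN and MYCN tumours (horizontal axis, log2, 5 tumours per group) for the 32 collagen genes tested, grouped by class, with 95% intervals from limma as lines; colour marks genes called higher, called lower or not called at an adjusted p under 0.05. The 8 genes called higher spread over the FACIT, anchoring, fibrillar and unclassified groups, and the intervals of Col1a1, Col1a2 and Col3a1 are the widest, each crossing 0.

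The fibrillar collagens of types I and III varied widely among the MYCN tumours, whose SD (1.75 for Col1a1, 1.57 for Col1a2 and 1.99 for Col3a1) exceeded the difference between the group means. For Col1a1, the alpha 1 chain of type I collagen (probe at mm9 chr11:94813115-94813174), the log2 ratios were -5.21, -2.69, -2.68, -2.36 and -2.39 in ALK/MYCN 1 to 5 and -4.10, -0.66, -0.60, 0.27 and -2.42 in MYCN 1 to 5. ALK/MYCN 1 stood far below the rest of its group. MYCN 2, 3 and 4 were above every ALK/MYCN tumour, while MYCN 1 lay below 4 of the 5 and MYCN 5 among them, so the groups overlapped. The difference was -1.57 ± 0.85 with a 95% interval of -3.45 to 0.32 (limma adjusted p = 0.2), which did not pass.

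Col1a2, the partner chain of type I collagen, read -4.31, -3.02, -2.96, -2.76 and -2.48 in ALK/MYCN 1 to 5 against -4.36, -1.25, -1.23, -0.58 and -3.07 in MYCN 1 to 5. The same tumours stood at the ends: ALK/MYCN 1 and MYCN 1 were lowest in their groups and MYCN 4 was highest. Its difference was -1.01 ± 0.69 (95% interval -2.53 to 0.52, limma adjusted p = 0.307). Col3a1, the chain of type III collagen that forms thin fibres with type I, read -4.03, -2.18, -1.54, -1.83 and -1.70 in ALK/MYCN 1 to 5 and -3.35, 0.56, 0.0039, 1.67 and -1.78 in MYCN 1 to 5. MYCN 4 and MYCN 1 were 1.67 and -3.35, a spread wider than the difference between the group means of -1.68 ± 0.89 (95% interval -3.65 to 0.30, limma adjusted p = 0.191).

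Col5a1, the type V chain that starts fibril assembly, was -3.79, -3.04, -2.66, -3.13 and -2.56 in ALK/MYCN 1 to 5 and -3.26, -1.16, -1.39, -0.48 and -2.66 in MYCN 1 to 5. Here 3 MYCN tumours, 2, 3 and 4, again lay above every ALK/MYCN tumour. The difference of -1.25 ± 0.50 did not pass (adjusted p = 0.0889, limma), and the other type V chains differed by -0.59 ± 0.52 for Col5a3 (adjusted p = 0.426) and 0.44 ± 0.41 for Col5a2 (adjusted p = 0.461). The chains of type V therefore did not share 1 sign, and both groups overlapped for each of the 3. Of the remaining fibrillar genes not called, Col11a1 differed by -0.13 ± 0.15 and Col27a1 by 0.029 ± 0.14 (adjusted p = 0.554 and 0.895).

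The 10 arrays lay on 3 slides, each with both genotypes: ALK/MYCN 2 and MYCN 1 on slide 1, ALK/MYCN 1, 3 and 4 and MYCN 4 on slide 2, and ALK/MYCN 5 and MYCN 2, 3 and 5 on slide 3. Within slides the Col1a1 difference was 1.41 on slide 1, -3.69 on slide 2 and -1.17 on slide 3, and the Col3a1 difference was 1.17 on slide 1, -4.13 on slide 2 and -1.30 on slide 3, so that the direction turned on the slide that held MYCN 1. With slide as a block the Col1a1 difference was -1.47 (limma adjusted p = 0.313).

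Without MYCN 1 the number of collagens called lower rose from 3 to 9, with 11.7% of all genes called lower in that fit. The added genes were Col1a1 (-2.22, limma adjusted p = 0.0466), Col3a1 (-2.37, 0.0416), Col4a1 (-1.15, 0.0237), Col4a2 (-1.05, 0.0139), Col5a1 and Col14a1. Among the 18 fibrillar, basement membrane and type VI genes tested, MYCN 1 was the lowest MYCN tumour for 13. MYCN 4 was the highest for 11 and the lowest for 5. In the other group ALK/MYCN 1 was lowest for 10 of the 18. MYCN 1 also stood high for skeletal muscle markers (list mean 2.31), whose part in the change without it was not tested.

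**Figure D2:**
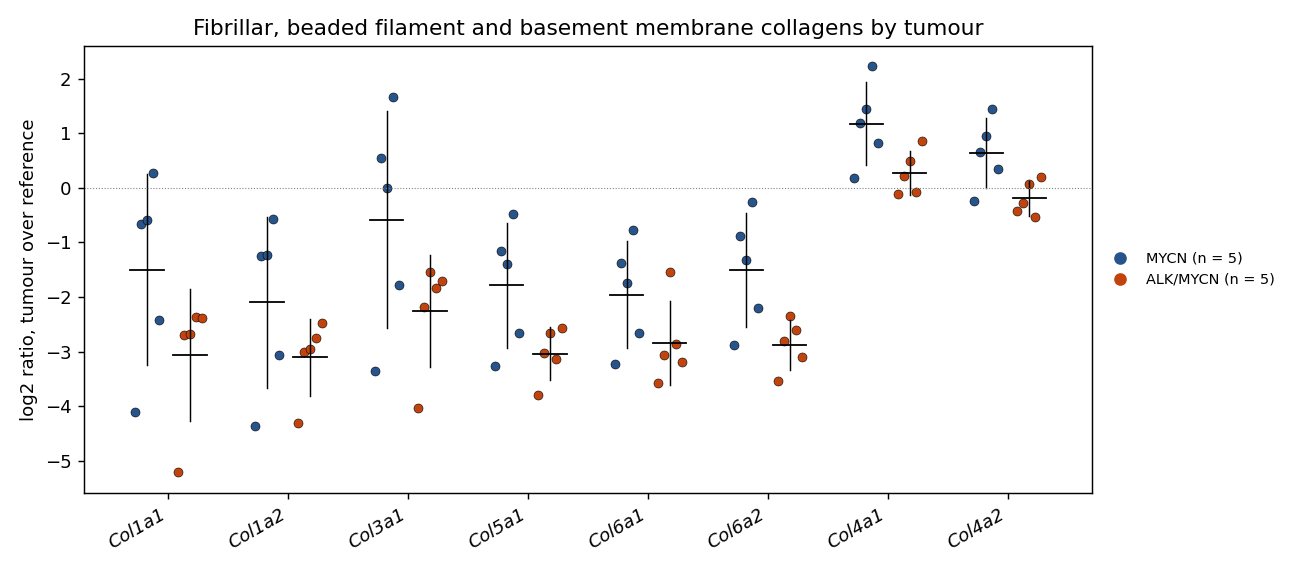
Log2 ratio of tumour over reference (vertical axis) of 8 fibrillar, type VI and type IV collagen genes in each tumour, replicates 1 to 5 from left to right, with the group mean (bar) and SD (line). MYCN 1 sits low and MYCN 4 high for most of the 8 genes, and the groups overlap for every one.

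Type IV collagen, the network of basement membranes, is built mainly of the chains of Col4a1 and Col4a2, for which MYCN 1 and MYCN 4 were again the lowest and highest of their group, with a narrower spread than for types I and III. Col4a1 read -0.12, 0.22, 0.50, -0.081 and 0.85 in ALK/MYCN 1 to 5 and 0.18, 1.19, 1.45, 2.23 and 0.83 in MYCN 1 to 5, a difference of -0.90 ± 0.35 (95% interval -1.67 to -0.13, limma adjusted p = 0.0801). Its partner Col4a2 was -0.42, -0.28, 0.069, -0.53 and 0.20 in ALK/MYCN 1 to 5 and -0.25, 0.67, 0.96, 1.45 and 0.35 in MYCN 1 to 5, a difference of -0.83 ± 0.29 (95% interval -1.47 to -0.19, adjusted p = 0.0573). For both genes MYCN 2, 3 and 4 lay above all ALK/MYCN tumours, as did MYCN 5 for Col4a2, and MYCN 1 lay among them. Col4a2 passed in 3 of 27 alternatives, namely without MYCN 1 (above), with the tumour channel alone (-0.94, adjusted p = 0.0433) and with array weights (-0.82, 0.04); in the other 24 it did not, among them spike-in centring (-0.62, 0.106).

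Col4a1 and Col4a2 are read in opposite directions from neighbouring start sites on chromosome 8. In RefSeq (GRCm38.p6) the start used for Col4a1, on the minus strand, is base 11312826 and that for Col4a2, on the plus strand, is base 11312805, which is 21 bases apart. The other type IV chains, Col4a5, Col4a6 and Col4a4, had differences of -0.66, -0.14 and -0.034 with overlapping groups, and 0 of the 5 type IV genes tested was called in either direction by limma. At an unadjusted p under 0.05, 4 of the 21 collagens not called had a difference, Col4a1 and Col4a2 among them. Col4a3 was well above background in 1 MYCN tumour and in 0 ALK/MYCN tumours and was not tested.

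Type VI collagen gave 1 of the 3 genes called lower. Col6a2 was -3.53, -2.80, -2.35, -2.61 and -3.11 in ALK/MYCN 1 to 5 and -2.88, -0.89, -1.33, -0.25 and -2.21 in MYCN 1 to 5. MYCN 2, 3, 4 and 5 were above all ALK/MYCN tumours, and MYCN 1 lay inside their range. It fell by 1.37 ± 0.46 on the log2 scale (adjusted p = 0.0494, limma), and the call was lost in 18 of 27 alternative analyses, including slide as a block (-1.56, adjusted p = 0.0579), the deposited log2 ratios (-1.50, 0.0513) and the fit without ALK/MYCN 3 and MYCN 2 (-1.34, 0.0987). Col6a1, whose chain pairs with that of Col6a2 in the type VI microfilament, differed by -0.89 ± 0.50 (adjusted p = 0.214). Col6a4 and Col6a6 were below the filter.

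Markers of stromal cells moved alongside these collagens. Of 16 fibroblast and pericyte markers tested, 4 were lower in ALK/MYCN tumours (Rgs5, Fbln2, Acta2 and Pdgfrb) and 0 were higher, with 1 of the remaining 2 on the list, Tcf21, well above background on 1 array and the other, Twist1, on 4. Their list mean ranged from -1.07 to 0.11 in ALK/MYCN tumours and from -1.01 to 1.64 in MYCN tumours, and the 2 tumours lowest for it were ALK/MYCN 1 and MYCN 1. Endothelial markers were lower for 9 of 12 tested (mean -0.78 to 0.094 in ALK/MYCN tumours and from -0.0063 to 1.04 in MYCN tumours), Cldn5 by the most (-2.17 ± 0.43), and macrophage markers for 9 of 12 (mean -0.72 to -0.20 in ALK/MYCN tumours and from -0.25 to 0.87 in MYCN tumours). The lower calls were 25% of the fibroblast and pericyte markers tested and 75% of each other list, beside 12.2% over all genes tested. In bulk tumour RNA, fewer cells of a type and less RNA per cell cannot be told apart.

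With the mean of those 3 marker lists as a covariate, the Col1a1 difference was 0.77 (limma adjusted p = 0.365), the Col1a2 difference 0.95 (0.106) and the Col3a1 difference 0.93 (0.122), so their sign turned. In that fit Col6a2 was -0.063 (adjusted p = 0.884), Col4a2 was -0.022 (0.945), and 0 collagens were called lower, with 2 at an unadjusted p under 0.05. The covariate also lowered the calls over all genes tested, to 8.11% higher and 5.70% lower. Col24a1, Col9a1, Emid2, Col28a1 and Col20a1 were still called higher, while Col9a2, Col7a1 and Col2a1 no longer passed and Col5a2, Col12a1 and Col16a1 did. The covariate is itself an outcome of the tumours, and the part of stromal content in the collagen values was not tested beyond this fit.

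**Figure D3:**
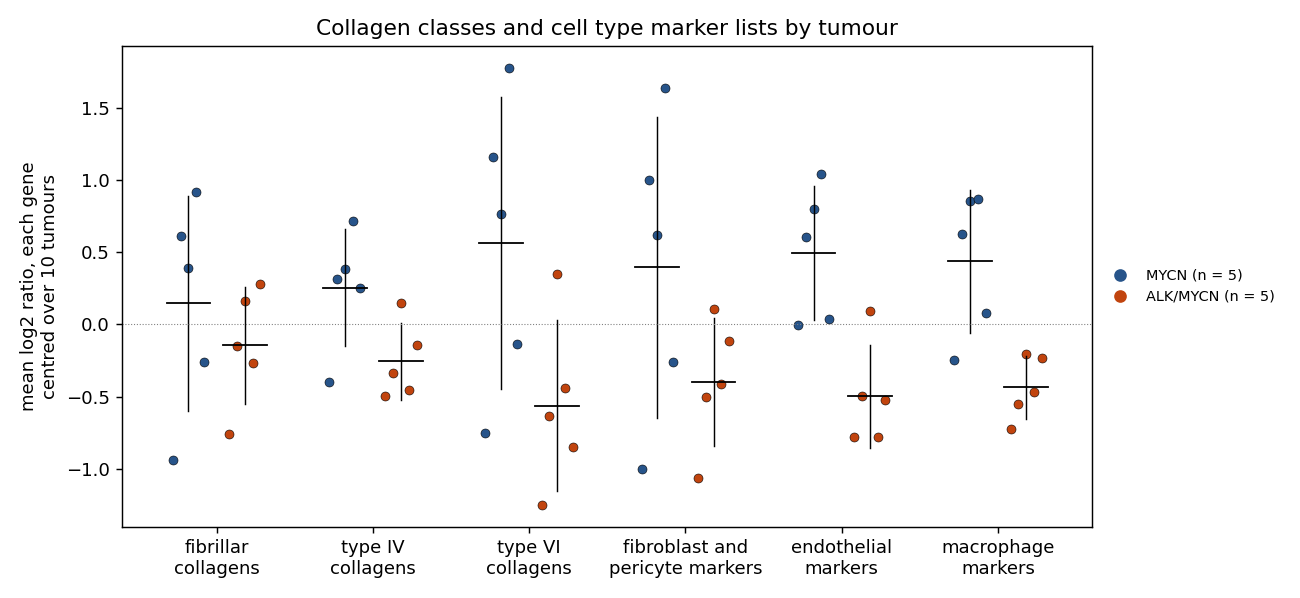
Mean log2 ratio per tumour, after centring each gene over the 10 tumours (vertical axis), of the fibrillar (11 genes), type IV (5) and type VI (2) collagens and of 3 cell type marker lists, with the group mean (bar) and SD (line) and replicates 1 to 5 from left to right. MYCN 4 is highest on each list and MYCN 1 is lowest of its group on each.

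Among the collagens that rose, the largest rise was that of Col24a1. Its product, the type XXIV chain, is a fibril-forming collagen known from developing bone and eye. At the probe at mm9 chr3:145214473-145214532 it read 2.95, 3.95, 3.10, 0.90 and 3.34 in ALK/MYCN 1 to 5 and 0.38, 0.81, 0.53, 0.24 and 0.60 in MYCN 1 to 5. The groups did not overlap: 4 ALK/MYCN tumours lay far above, and ALK/MYCN 4 lay just over MYCN 2. It rose by 2.33 ± 0.47, or 5.04-fold (limma adjusted p = 0.00639), was higher on each slide (3.57 on slide 1, 2.07 on slide 2 and 2.69 on slide 3), and kept its call in all 26 alternative analyses that could be run on it.

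Col9a1 had the smallest adjusted p of the family. It encodes a chain of type IX collagen, a FACIT that coats type II fibrils in cartilage and is also found in the vitreous of the eye. Its values were 2.88, 3.16, 3.89, 2.67 and 3.23 in ALK/MYCN 1 to 5 and 1.16, 1.57, 1.37, 0.97 and 1.17 in MYCN 1 to 5, so that every ALK/MYCN tumour was above every MYCN tumour. It rose by 1.92 ± 0.21, or 3.78-fold (limma adjusted p = 0.000512), and stayed called in all 26 alternatives run on it. A second Col9a1 probe, nearer the 5′ end of the same transcript (base 964, against base 3435 for the probe used), was well above background in 0 ALK/MYCN and 1 MYCN tumours, so the rise rests on the 3′ probe.

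Col9a2, a second chain of type IX collagen, was 1.61, 1.30, 1.34, 0.42 and 0.92 in ALK/MYCN 1 to 5 and 0.44, 0.26, 0.42, -0.086 and 0.31 in MYCN 1 to 5. It rose by 0.85 ± 0.21 (adjusted p = 0.0143, limma), with ALK/MYCN 4 inside the MYCN range. The call was lost without ALK/MYCN 3 and MYCN 2 (0.79, adjusted p = 0.055) and with the stromal covariate (0.66, 0.15). The remaining chain, Col9a3, was well above background in 3 of 5 ALK/MYCN and 0 of 5 MYCN tumours, below the filter, and was not tested.

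Promoter sequences are shown for Col24a1 and for the start sites RefSeq lists for Col9a1, the genes with the largest rises, and for Col3a1 as a fibroblast collagen that did not pass. Each runs from 250 bases before the start to 10 bases after it, on the plus strand of GRCm38.p6, and capitals mark matches on either strand to 6 motifs searched.
Col24a1, chr3:145292222-145292481: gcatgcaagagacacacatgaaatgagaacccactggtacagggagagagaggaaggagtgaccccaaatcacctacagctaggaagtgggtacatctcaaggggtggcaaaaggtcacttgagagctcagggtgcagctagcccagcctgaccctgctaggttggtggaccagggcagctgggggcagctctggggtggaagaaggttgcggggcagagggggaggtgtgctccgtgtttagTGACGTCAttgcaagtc
Col9a1, first start, chr1:24177360-24177619: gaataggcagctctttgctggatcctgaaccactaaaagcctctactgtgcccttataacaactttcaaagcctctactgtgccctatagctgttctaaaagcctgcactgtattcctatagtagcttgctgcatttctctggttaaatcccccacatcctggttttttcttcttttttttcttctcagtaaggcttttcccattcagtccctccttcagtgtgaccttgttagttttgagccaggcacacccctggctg
Col9a1, second start, chr1:24194953-24195212: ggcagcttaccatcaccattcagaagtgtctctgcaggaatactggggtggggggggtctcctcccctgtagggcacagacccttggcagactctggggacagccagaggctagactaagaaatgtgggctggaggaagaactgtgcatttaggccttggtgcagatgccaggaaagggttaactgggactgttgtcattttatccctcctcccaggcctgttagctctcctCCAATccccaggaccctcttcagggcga
Col3a1, chr1:45311288-45311547: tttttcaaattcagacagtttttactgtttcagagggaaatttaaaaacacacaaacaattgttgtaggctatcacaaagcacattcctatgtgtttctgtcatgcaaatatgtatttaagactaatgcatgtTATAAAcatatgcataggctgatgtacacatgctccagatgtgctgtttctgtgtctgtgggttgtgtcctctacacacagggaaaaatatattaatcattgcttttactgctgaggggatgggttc
The motifs were TGACGTCA (the cyclic AMP response element, in 1.67% of the 32851 RefSeq windows of this length), TGACTCA (AP-1, 4.65%), CCGGAA (the core bound by ETS factors, 12.9%), GGGCGG (GC box, 33.4%), CCAAT (34.6%) and TATAAA (12.7%), and none of these letter strings lies inside another. TGACGTCA begins 7 bases before the Col24a1 start and was found in no other of the 36 windows that matched 33 of the 42 collagen genes. Col3a1 held TATAAA 117 bases before its start, the second Col9a1 start held CCAAT 18 bases before it, and the first Col9a1 start held none of the 6. A match is a string of letters, with no measurement here of binding or use.

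Emid2, now Col26a1, encodes a short collagen with an EMI domain. It read 2.17, 1.51, 2.38, 0.81 and 2.99 in ALK/MYCN 1 to 5 and -0.22, 0.68, 0.40, -0.10 and 0.53 in MYCN 1 to 5. The groups did not overlap, with ALK/MYCN 4 nearest to the MYCN tumours. It rose by 1.71 ± 0.37, or 3.28-fold (adjusted p = 0.009, limma), and kept the call in all 25 alternatives run on it; 3 of 5 MYCN tumours were well above background.

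Col28a1 encodes type XXVIII collagen, which lies in the basement membrane around Schwann cells of peripheral nerve. Its values were 1.23, 0.89, 1.50, 0.80 and 1.75 in ALK/MYCN 1 to 5 and 0.32, 0.12, 0.26, 0.24 and 0.41 in MYCN 1 to 5, with no overlap. It rose by 0.96 ± 0.17 (limma adjusted p = 0.00361). Of 5 Schwann cell and glial markers tested, Foxd3 (1.67 ± 0.20) and Sox10 (1.16 ± 0.16) were higher and 0 lower. Over all genes tested 14.2% were called higher and 12.2% lower. S100b (0.17 ± 0.25, limma adjusted p = 0.648), Mbp (-0.11 ± 0.13, 0.557) and Prx (-0.065 ± 0.19, 0.835) were not called. The list means ran from 0.06 to 0.62 in ALK/MYCN tumours and from -0.54 to 0.017 in MYCN tumours. Erbb3, which marks Schwann cells, was well above background on 0 arrays and Cdh19 on 4, and the part of such cells in the Col28a1 result was not tested.

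Further collagens passed by less. Col20a1, a FACIT expressed in few tissues, read -1.05, -1.32, -0.86, -1.14 and -1.07 in ALK/MYCN 1 to 5 and -1.91, -1.33, -1.43, -1.60 and -1.89 in MYCN 1 to 5. It rose by 0.55 ± 0.13 (limma adjusted p = 0.0144), and a second kept probe of the gene differed by 0.82; the groups did not overlap, but ALK/MYCN 2 and MYCN 2 lay next to each other at -1.32 and -1.33. Col7a1, the chain of the anchoring fibrils that hold the epidermis to the dermis, was -0.88, -0.39, -1.21, -0.45 and -0.68 in ALK/MYCN 1 to 5 and -1.39, -1.50, -1.17, -1.49 and -1.34 in MYCN 1 to 5. It rose by 0.66 ± 0.15 (adjusted p = 0.0114), although ALK/MYCN 3 was below MYCN 3.

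Col2a1, the main fibrillar collagen of cartilage, was -0.43, -0.80, -0.23, -0.25 and -0.72 in ALK/MYCN 1 to 5 and -0.84, -0.83, -0.84, -1.24 and -1.19 in MYCN 1 to 5, without overlap. Since it was not well above background in any MYCN tumour, its fold is a bound, which was at least 1.42-fold higher with activated ALK, beside a fitted difference of 0.50 ± 0.14 (limma adjusted p = 0.0261), a bound open to dye bias because dyes were not swapped. The call was lost in 9 of 26 alternatives, among them slide as a block (0.45, adjusted p = 0.0949), the fit without ALK/MYCN 3 and MYCN 2 (0.48, 0.0587) and the fits without any 1 of ALK/MYCN 1, 3 and 4 and MYCN 4 and 5. Of 10 cartilage and bone markers, 7 (Acan, Matn1, Matn3, Comp, Hapln1, Ibsp and Sp7) were below the filter, with Matn3, Ibsp and Sp7 well above background on 0 arrays, and 0 of the 3 tested was called by limma.

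Lower collagens outside type VI were Col25a1 and Col11a2. Col25a1 is a transmembrane collagen of neurons that is needed for motor axons to reach muscle. At its probe near the 5′ end (transcript base 904) it was 0.56, 0.14, 0.77, 0.59 and 0.63 in ALK/MYCN 1 to 5 and 1.18, 0.91, 1.06, 1.71 and 1.25 in MYCN 1 to 5. All ALK/MYCN tumours were below all MYCN tumours, and it fell by 0.68 ± 0.16 (limma adjusted p = 0.0122). The 3 other Col25a1 probes, at or beyond transcript base 2123 and including the glycine repeat probe printed above, were not well above background often enough to be kept. The call was lost in 2 of 25 alternatives. These were the stromal covariate (-0.53, limma adjusted p = 0.135) and centring on the spike-in controls (-0.47, 0.0668). Spike-in centring moves the median of all genes to 0.21.

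Col11a2, a chain of type XI collagen that sits within cartilage fibrils, was -0.54, -0.68, -0.56, -0.74 and -0.46 in ALK/MYCN 1 to 5 and -0.35, -0.28, -0.36, -0.38 and -0.18 in MYCN 1 to 5. The groups did not overlap, and it fell by 0.28 ± 0.072 (limma adjusted p = 0.0174). It was well above background in 2 of 5 ALK/MYCN and 5 of 5 MYCN tumours, so its direction was partly fixed by the filter. With slide as a block the difference was -0.24 (adjusted p = 0.0657), with median centring -0.24 (0.0509), with spike-in centring -0.076 (0.596) and without ALK/MYCN 3 and MYCN 2 -0.29 (0.0535), so its call depended on these settings.

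**Figure D4:**
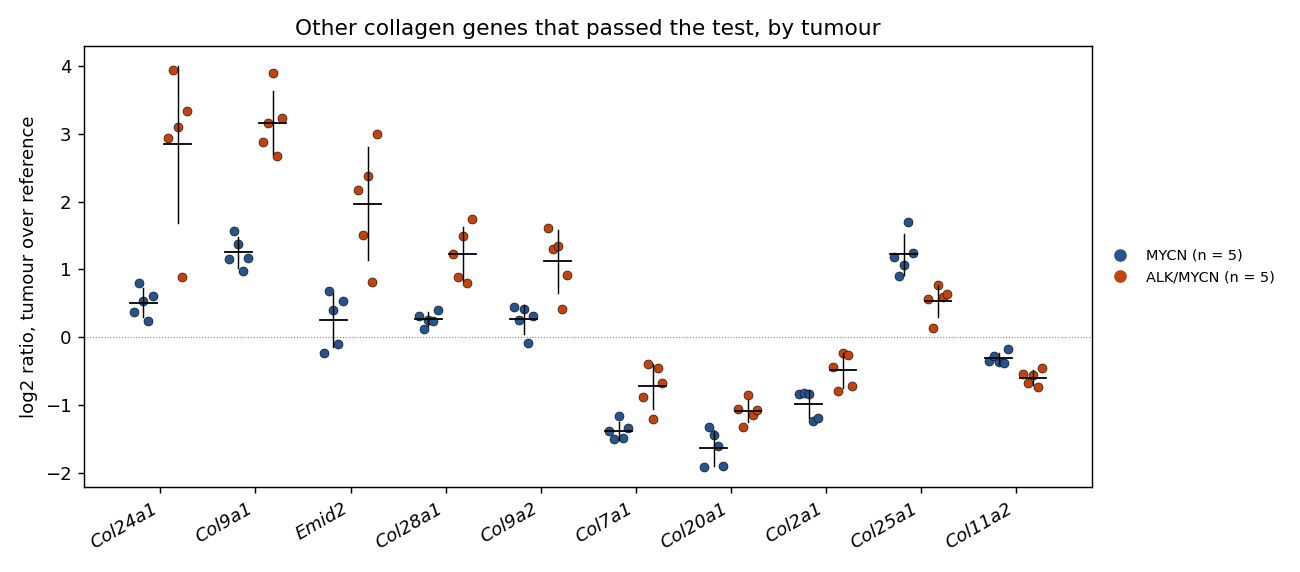
Log2 ratio of tumour over reference (vertical axis) of the 10 called collagen genes other than Col6a2 in each tumour, replicates 1 to 5 from left to right, with the group mean (bar) and SD (line). Col24a1, Col9a1, Emid2, Col28a1, Col20a1 and Col2a1 do not overlap between groups on the higher side, nor Col25a1 and Col11a2 on the lower side, and ALK/MYCN 4 is the lowest of its group for 5 of the 8 genes that rose.

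In all, 6 of the 32 collagens tested were higher without overlap and 2 lower, where over all genes tested 19.9% did not overlap, 11.3% on the higher and 8.6% on the lower side. Col2a1, Col28a1 and Col11a2 among them met the filter mainly through their higher group, so these counts are a description only. The reference channel was not well above background on any array for 5 of the 32 (Col9a1, Col24a1, Col28a1, Col25a1 and Col11a1), so their ratios sit on a floor set by the reference. Using the tumour channel alone, Col9a1 differed by 1.94 (limma adjusted p = 0.000534), Col24a1 by 2.57 (0.00262), Col28a1 by 1.07 (0.00658) and Col25a1 by -0.80 (0.0033).

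The remaining collagens tested gave no call. Among the FACITs, Col14a1 differed by -1.23 ± 0.54 (limma adjusted p = 0.118), with -0.66 at the glycine repeat probe shown above. Col16a1 differed by 0.94 ± 0.47 (adjusted p = 0.167) and Col12a1 by 0.38 ± 0.18 (0.143), which was called higher with median centring, spike-in centring, the tumour channel alone and the stromal covariate. The multiplexins, basement membrane collagens whose ends can be cut off as fragments that slow vessel growth, were -0.43 ± 0.27 for Col15a1 (0.27) and -0.34 ± 0.31 for Col18a1 (0.457). ALK/MYCN 5 stood above the rest of its group for Col18a1 (-0.36). The Col15a1 difference changed sign with the tumour channel alone (0.29), while its glycine repeat probe gave -0.40. Col8a1, a short chain collagen of vessel walls, differed by 0.45 ± 0.29 (0.284) and the transmembrane Col23a1 by 0.057 ± 0.097 (0.702).

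The 10 collagens below the filter were Col10a1, Col13a1, Col17a1, Col19a1, Col22a1, Col4a3, Col6a4, Col6a6, Col8a2 and Col9a3. Of these Col10a1, the collagen of hypertrophic cartilage, was well above background in 3 ALK/MYCN and 0 MYCN tumours, as was Col9a3, and Col22a1 in 2 of each. Col13a1, Col17a1 and Col6a4 were above it in 0 tumours. Col6a3, Col6a5 and Col21a1 were not analysed here.

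The machinery that makes, exports, cuts and senses collagen was read from a list of 82 genes, of which 73 were tested. Of these 6 (8.22%) were higher and 9 (12.3%) lower (limma, adjusted p under 0.05), beside 14.2% and 12.2% over all genes tested, with a median difference of -0.21 beside -0.0036 over all genes. Among 22 genes of folding and modification 3 (13.6%) were higher and 1 (4.55%) lower. Lepre1, a prolyl 3-hydroxylase of procollagen, was 0.74 ± 0.11 in ALK/MYCN and 0.11 ± 0.21 in MYCN tumours (mean ± SD, n = 5) and rose by 0.63 ± 0.10 (limma adjusted p = 0.00259). Leprel1, a related hydroxylase, rose by 0.50 (adjusted p = 0.047), a call lost in 15 of 25 alternatives, and Pdia3, a disulfide isomerase, by 0.46 (0.0173). Leprel4, a partner in collagen lysine hydroxylation, fell by 0.57 (0.0098). The collagen chaperone Serpinh1, chosen after its value was seen, differed by -1.28 ± 0.53 (0.101).

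Of 17 export and maturation genes tested 3 (17.6%) were higher and 1 (5.88%) lower, beside 14.2% and 12.2% over all genes tested. The 3 higher act with the coat that carries procollagen out of the endoplasmic reticulum. Klhl12, which enlarges the coat, rose by 0.45 ± 0.062 (limma adjusted p = 0.00121), Sec23a, a coat subunit, by 0.70 ± 0.10 (0.00137) and Mia3, the procollagen cargo receptor, by 0.33 ± 0.076 (0.0131). None of the 3 overlapped between groups, as was so on the higher side for 11.3% of all genes tested. Mia3 had no value in MYCN 4, so its comparison leaves that tumour out. The coat subunits Sec24d (0.77 ± 0.27, 0.0578) and Sec13 (0.056 ± 0.064, 0.551), chosen after their values were seen, did not pass. Lox, the enzyme that crosslinks fibrils outside the cell, fell by 1.10 ± 0.35 (0.0423), a call lost in 19 of 27 alternatives.

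Of 11 breakdown and uptake genes tested 1 (9.09%) was lower and 0 higher, beside 12.2% and 14.2% over all genes tested. The lower gene was Ctsb, a lysosomal protease (-0.81 ± 0.21, limma adjusted p = 0.0173). Timp1, an inhibitor of matrix proteases, differed by -1.19 ± 0.52 (0.117), the collagen uptake receptor Mrc2 by -0.55 ± 0.22 (0.0933) and the gelatinase Mmp2 by -0.52 ± 0.33 (0.268), none of which passed. Of 9 receptors tested 3 (33.3%) were lower, beside 12.2% over all genes tested. They were the receptor tyrosine kinase Ddr1 (-0.29 ± 0.084, 0.0292), Gpr56, an adhesion receptor for type III collagen (-0.30 ± 0.092, 0.0358), and Lair1, an inhibitory receptor of leukocytes (-0.65 ± 0.21, 0.0465). These 3 calls were lost in 12, 14 and 17 of 27 alternatives. Ddr2, the receptor of fibroblasts, differed by -1.15 ± 0.42 (0.0705).

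Among 14 genes of TGF-beta signalling, the main inducer of collagen in fibroblasts, 3 (21.4%) were lower and 0 higher. Over all genes tested 12.2% were lower and 14.2% higher. The 3 lower were Tgfb1, the ligand (-0.65 ± 0.21, limma adjusted p = 0.0451), Ctgf, a target gene (-1.12 ± 0.36, 0.0447), and Smad7, an inhibitor that the pathway itself induces (-0.49 ± 0.11, 0.0113). Tgfb2, another ligand, had a positive difference that did not pass (0.92 ± 0.32, 0.0557). All 3 genes called lower overlapped between groups, and the calls on Ctgf and Tgfb1 were lost in 17 and 16 of 27 alternatives. Without any 1 of ALK/MYCN 1, 2, 4 and 5 and MYCN 3 and 4 the lower calls over the 73 genes dropped from 9 to a number between 3 and 5, and blocking on slide left 3.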

How the data were processed

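Total RNA of 10 tumours (5 per genotype, 1 array each) was hybridised against a common reference on Agilent 2-colour arrays with tumours in Cy3 throughout. The deposited spot intensities came from Agilent's Feature Extraction software (10.7.3.1 in the headers), which places probes on mm9. The log2 ratios of the deposited value table matched the processed tumour over reference signals to within 0.000501. Later steps by the authors are not given in the sources used here.

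Background was corrected with normexp (offset 50), ratios were normalised within arrays by loess with control spots at weight 0, and turned to tumour over reference. Flagged outlier spots (177 to 345 per array) were set to missing; no spot was saturated. A probe was kept if it stood well above background for 5 or more of the 10 tumours (30857 probes), and each gene was read by its kept probe of highest mean intensity. The test was limma's (version 3.58.1, R 4.3.3, two-sided moderated test, Benjamini-Hochberg over 22263 genes at 0.05). Symbols are those of the array. In simulated data with 200 of 22263 genes changed, this comparison recovered 46.2%, 76.7% and 96.8% of changes of 0.5, 1 and 2 (log2), and 9 of 155 calls were false. The simulation drew the noise of each gene independently and changed far fewer genes than the 26.5% called in the tumours. Its rates therefore need not hold for the tumour data. The number of arrays limits the precision. Where a probe was above background in no tumour of a group, the bound on its fold used Cy3 values after loess and Aquantile scaling.

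Collagens named with full values are Col1a1, Col1a2, Col3a1, Col4a1, Col4a2 and every called member of a class, up to 8, or its 2 members of smallest p; pathway genes are the 4 of smallest p per list, or up to 8 where more passed. All other collagens with values, and the marker genes, were named after their values were seen. The members, classes, pathway lists and marker lists were chosen with earlier results of these data known; some marker genes are not reported here and were left out of their list. Alternatives were other background corrections, centrings, filters, probe choices and variance models, slide or replicate number as a block, a stromal marker covariate, and leaving out each tumour; leaving out ALK/MYCN 3 and MYCN 2 together was added after seeing the data, for their adrenal and muscle markers. Promoter sequences are RefSeq's, GRCm38.p6.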

Additional observations from a re-analysis of the deposited data

Results flagged for a closer look

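A single tumour stood apart from the other 4 of its group for 3 of the collagen genes named, by Dixon's test of the gap to the nearest tumour over the group's range. Col1a1 in ALK/MYCN 1 was -5.21, with the others between -2.69 and -2.36. Col3a1 in ALK/MYCN 1 was -4.03, with the others between -2.18 and -1.54. Col18a1 in ALK/MYCN 5 was -0.36, with the others between -1.60 and -1.31. The test was run on 36 groups of 5, and chance flags about 1 group in 20. ALK/MYCN 1 also had the lowest fibroblast and pericyte marker mean of all 10 tumours (-1.07), whose part in these values was not tested.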

How the results depend on the processing

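The 8 collagens called higher numbered 5 when a probe was required to exceed background in each of the 10 tumours, which left 23 collagens to test, and 4 where both channels had to be (25 tested), and 7 to 8 when any 1 tumour was left out. The 3 called lower became 1 with median centring, 0 with spike-in centring (4 at an unadjusted p under 0.05 by limma), 1 with the filter on all 10 arrays, 1 with slide as a block, 0 with the stromal marker covariate, 1 without ALK/MYCN 3 and MYCN 2, and between 2 and 9 without any 1 tumour, 9 being without MYCN 1. Pathway genes higher, 6, became 11 with median centring, 15 with spike-in centring and 10 with the covariate (5 to 6 without any 1 tumour); those lower, 9, became 5 with the deposited value table, 3 with median centring, 3 with spike-in centring, 5 with scaling between arrays, 3 with slide as a block, 2 with the covariate and 3 to 13 without any 1 tumour. Over all genes, higher calls made up 53.8% of calls, 76.8% after median centring and 88.4% after centring on spike-ins. The signs that turned were those of Col1a1 (0.77), Col1a2 (0.95), Col3a1 (0.93), Col4a1 (0.057), Col18a1 (0.33), Mrc2 (0.053), Mmp2 (0.25) and Ddr2 (0.077) with the covariate and Col15a1 (0.29) with the tumour channel alone. The replicate numbers did not pair the tumours: correlations of same-numbered deviations were 0.34, -0.02, -0.081, -0.091 and -0.061, and with number as a replicate block 7 collagens were called higher and 4 lower, and 5 and 7 pathway genes. The cause of these shifts was not tested, except that the stricter filters tested fewer genes. Col9a1, Col24a1, Col28a1, Emid2 and Col20a1 kept direction and call in every alternative run on them. Col28a1 and Emid2 did not pass either stricter filter, nor Col9a1 and Col24a1 the filter on both channels, so those alternatives were not run on them. Col28a1 met the main filter mainly through the ALK/MYCN tumours.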
